A study of Homo sapiens with 3 samples.

Results

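The array of TK-10 cells treated with cordyceps was compared directly with the array of TK-10 cells treated with sunitinib, gene by gene. A gene entered the comparison when its brightest probe, outside a left-out block of spots, passed the scanner software's test of being well above background on the cordyceps array, the sunitinib array or both. This gave 23384 of 57110 probes and 13647 of 22130 named genes. TK-10 is an established human renal cell carcinoma line. The study hybridised 3 single-colour arrays, 1 for each of 0.1% DMSO vehicle, cordyceps at 750 μg/ml and sunitinib at 10 μM, all after 48 h, and the vehicle array was used here only as a reference level. All 3 cultures carried nicotinamide, troglitazone and zinc sulfate in a medium with serum and antibiotics. The sample labels name cordyceps where the study's methods name cordycepin at another dose, and the files do not settle which was added, so the array is called the cordyceps array. The agents were given at different doses, and no matched dose was measured.

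Sunitinib is an inhibitor of receptor tyrosine kinases, among them the receptors of VEGF and PDGF and KIT, and is used against renal cell carcinoma. Cordycepin is an adenosine analogue from Cordyceps fungi that lacks a hydroxyl group of its sugar and is known for ending growing RNA chains and poly(A) tails. Receptor tyrosine kinases pass growth signals through the ERK and AKT kinases to early response genes and then to the genes of cell division.

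Of the 13647 genes, 1321 (9.68%) were over 2-fold higher on the cordyceps array than on the sunitinib array and 935 (6.85%) were over 2-fold lower, while 11391 stayed within 2-fold. These 2 percentages are the background against which the counts of each gene group below are read. Genes with large differences were more often higher on the cordyceps array: 285 were over 4-fold higher and 115 over 4-fold lower, and 24 were over 16-fold higher and 10 over 16-fold lower. The level of a gene is its log2 processed signal minus the 75th percentile of its array, and a difference is the cordyceps level minus the sunitinib level. Over all genes compared the median difference was 0.02. A fold against a signal not well above background is a lower bound, as it was for 247 genes on the higher side and 222 on the lower side.

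Each condition had 1 array, so differences between conditions could not be tested, p-values and replicate spread cannot be given, and precision is limited by how few arrays there are. Probes printed in 10 spots gave a within-array error only: the SD of their log2 signal had a median of 0.06 on both treated arrays. It used only spots well above background, for 275 probes on the cordyceps and 270 on the sunitinib array. The error of dim signals is thus not covered. The scanner software's own error, combined over the 2 arrays, had a median of 0.21 on the log2 scale. Each of the 1787 genes past 2-fold and measured on both arrays exceeded its 95% limit. That limit lay below 2-fold for the named genes measured on both arrays (0.69 for the dim IFITM1). Passing 2-fold thus nearly ensured passing it, and the count is no further check. Among the 12312 genes measured on both arrays the differences had an SD of 0.78, with quartiles at -0.40 and 0.46. Scaling by the median, or using the unscaled values of the deposited table, moved the median of all genes by 0.54 and 0.78 and the share of higher genes among those past 2-fold from 58.6% to 92.5% and 96.7%, so the group medians below are to be read beside the median of all genes. Because each array measured the RNA of a whole culture, fewer cells of a kind and less RNA per cell could not be told apart.

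The vehicle level showed the side of the difference for only part of the 2256 genes past 2-fold. It lay within 2-fold of the cordyceps array only for 978 of them (43.4%), within 2-fold of the sunitinib array only for 212 (9.40%), within 2-fold of both for 867 (38.4%) and of neither for 199 (8.82%). The count of neither is partly set by the floors to which signals not well above background were raised. After scaling, the vehicle floor lay over 2-fold below both treated floors. DUSP13A, not well above background on the sunitinib or vehicle array, was thus scored 1.08 apart between them. TIRAP was scored 1.03 apart between the cordyceps and vehicle arrays in the same way. How many of the 199 are such genes was not counted. Adding all 199 to the 212 would still give fewer than 978. The sunitinib array was thus the array that stood apart from vehicle for the more genes. A bright group of genes made an exception to the even spread. The 200 brightest genes, ribosomal protein genes among them, had a median difference of -0.44. Medians in 5 bins of level ranged from -0.10 to 0.07.

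**Figure D1:**
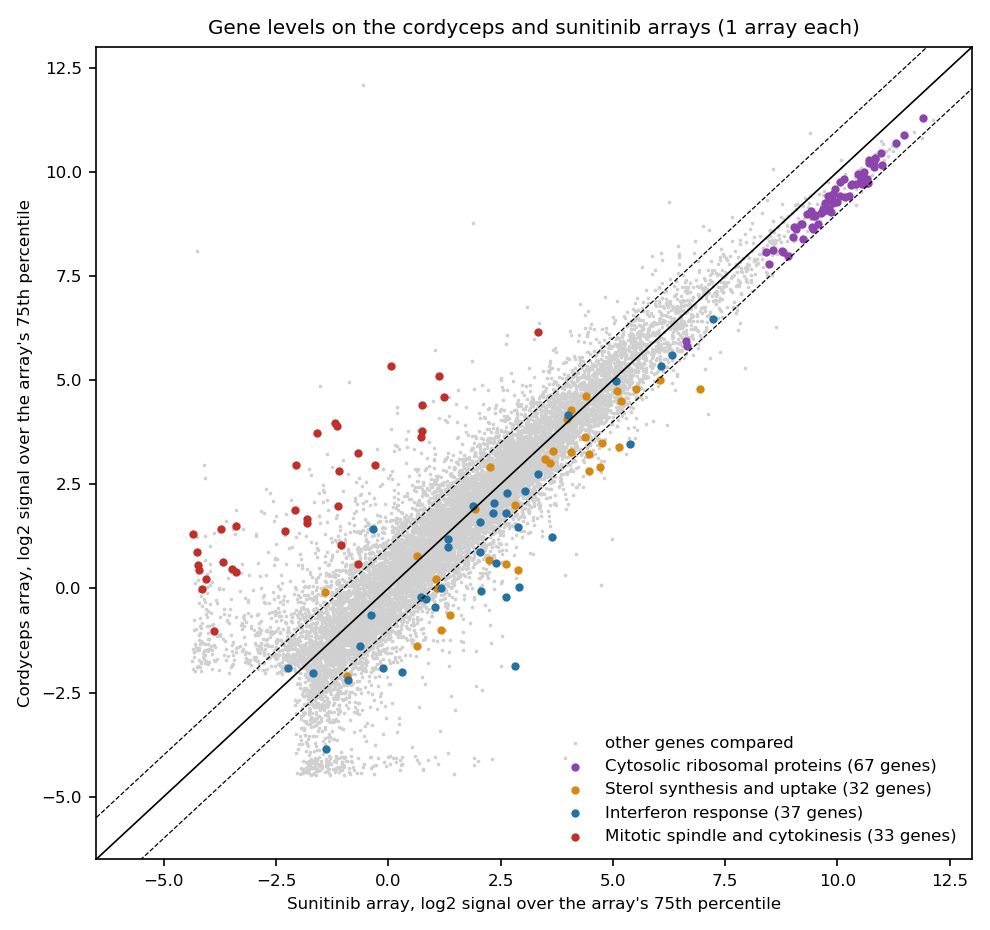
Level of each gene on the sunitinib array (x axis) and the cordyceps array (y axis), both as log2 signal over the 75th percentile of the array, with the line of equal level (solid) and 2-fold limits (dashed); undetected signals are drawn as measured. The 33 mitotic genes lie above the upper limit, the interferon and sterol genes mostly on or below the line, and the 67 ribosomal protein genes just below it.

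Among genes measured on both arrays, the largest differences towards the cordyceps array included mitotic genes, a histone and secreted immune proteins. CSF2, the growth factor of granulocytes and macrophages, had a processed signal of 3876 on the cordyceps array, 27.4 on the sunitinib array and 2282 on the vehicle array, a difference of 6.36. PTX3, a secreted pattern recognition protein, had 7047, 159.9 and 2844 in the same order, a difference of 4.68. For both genes the vehicle level lay between the treated arrays and nearer to cordyceps. FAM110B had the largest difference, 6.88, with 58294 on the cordyceps array, 289.7 on the sunitinib array and 983 on the vehicle array. That gene has 1 probe, and its cordyceps signal was far from both other arrays. SLCO4A1, an organic anion transporter, differed by 4.43 and ASB2, a ubiquitin ligase subunit, by 4.16.

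The lowest genes on the cordyceps array were led by IFITM1, an interferon-induced membrane protein that restricts virus entry. Its signal was 36.7 on the cordyceps array, 550.2 on the sunitinib array and 82.4 on the vehicle array, a difference of -4.68, and its other probe gave a bound of -3.51 the same way. SSPN, a membrane protein of the dystrophin complex, followed with 141, 2100 and 3748, a difference of -4.67. Here the cordyceps array was the low array and the vehicle signal lay near the sunitinib signal, as it also did for NKAIN4 (239.1, 1412 and 2283, a difference of -3.34). ID1, ID2 and ID3, inhibitors of basic helix-loop-helix factors, differed by -2.93, -3.79 and -3.62. ID1 had 2443 on the cordyceps array, 10869 on the sunitinib array and 3918 on the vehicle array, so the sunitinib array was the high array. LBH, a transcription cofactor, differed by -3.68 (its other compared probe gave a bound of -0.85), ATOH8, a basic helix-loop-helix factor, by -3.15 and UNC13C, a protein of synaptic vesicle priming, by -3.12.

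Some of the largest values came from probes that were bright on 1 array alone. DUSP13A, a dual specificity phosphatase, had 36491 on the cordyceps array against 4.11 and 4.09 on the sunitinib and vehicle arrays, a bound of 10.18. TIRAP, an adaptor of Toll-like receptors, had 1201 on the sunitinib array against 8.0 on the cordyceps and 4.96 on the vehicle array, a bound of -6.09, while its other 2 probes were not well above background on either treated array. PTGFR, a prostaglandin receptor, had 331.5 on the sunitinib array against 24.7 and 22.4, and its other 2 probes were also not well above background. A probe of PRAMEF5 read 583540 on the cordyceps array against 52.9 and 81.5, and 3 of the 48 spots around it were also over 16-fold brighter there, while the other probe of that gene was not well above background. The part of local spot faults in these values was not tested.

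**Figure D2:**
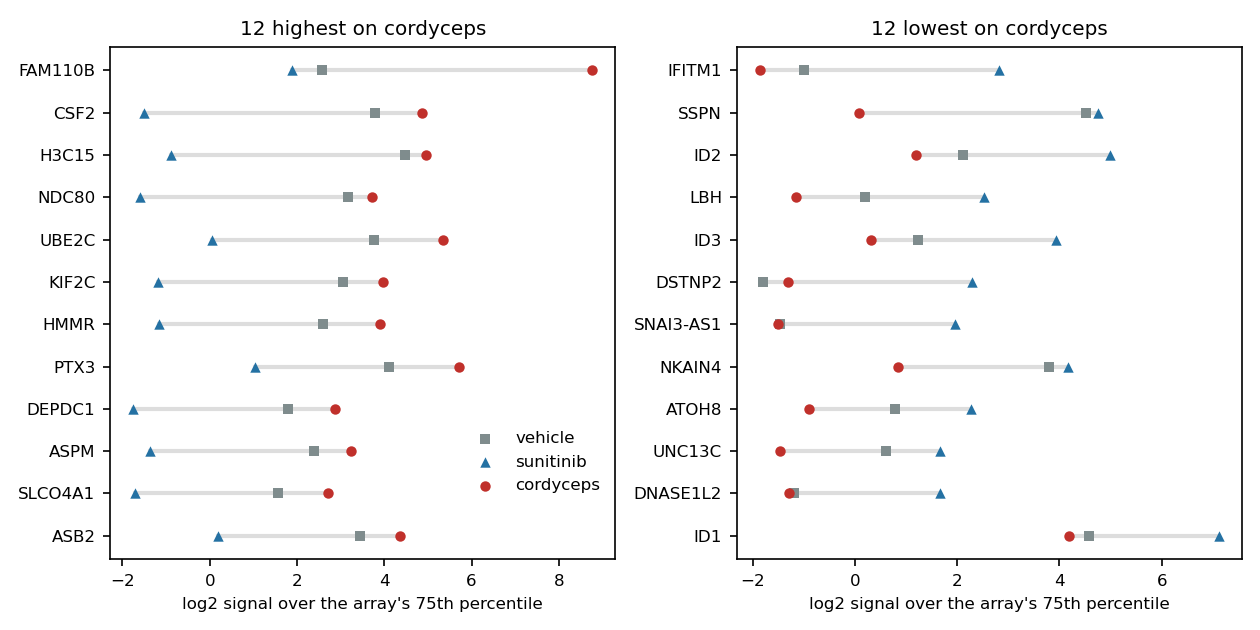
Levels of the 12 genes with the highest and the 12 with the lowest differences among genes measured on both treated arrays, on the cordyceps (circle), sunitinib (triangle) and vehicle (square) arrays, 1 array each, as log2 signal over the 75th percentile of the array. In the left panel the vehicle square lies between the treated arrays throughout, nearer to the cordyceps circle except for FAM110B, and in the right panel SSPN and NKAIN4 have vehicle next to sunitinib.

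Mitotic genes showed the largest shift of any list. All 33 of the 36 listed genes that could be compared were over 2-fold higher on the cordyceps array, 15 of them as bounds, with a median difference of 3.35 beside 0.02 for all genes. The count held in each role: 7 of 7 kinases, 6 of 6 kinetochore genes, 10 of 10 spindle motors and assembly factors and 10 of 10 genes of exit and separation. NDC80, a kinetochore subunit that binds microtubules, had 1769 on the cordyceps array, 26.0 on the sunitinib array and 1486 on the vehicle array, a difference of 5.31. UBE2C, the ubiquitin carrier of the anaphase-promoting complex, had 5455, 81.2 and 2218, a difference of 5.29. The sunitinib array was the low array for both, and the cordyceps level exceeded vehicle by 0.55 for NDC80 and 1.59 for UBE2C. KIF2C, a microtubule-depolymerising kinesin, differed by 5.15 and HMMR, a spindle-associated protein, by 5.04. CDK1, the kinase that drives entry into mitosis, had 1051 on the cordyceps array, 18.7 on the sunitinib array, where it was not well above background, and 572 on the vehicle array, so it was at least 32.8-fold higher on the cordyceps array. The smallest measured difference was that of INCENP, a subunit of the chromosomal passenger complex, at 1.27. For 23 of the 33 genes the vehicle level was within 2-fold of the cordyceps array only, for 8 it lay between the treated arrays and over 2-fold from each, and for the other 2 it was within 2-fold of both.

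Promoters of mitotic genes are known for CCAAT boxes and for the cell cycle homology region near the start site, to which the MuvB complexes bind. In the 250 bases before and 50 after the start, TTTGAA on either strand was in 19 of the 28 mitotic genes with a promoter in the RefSeq table (67.9%) and in 18.2% of all 27305 genes with one. CCAAT on either strand was in 22 of the 28 (78.6%) and in 39.7% of all genes. A match is a description of the letters and not a shown site. The lists and motifs here and below were chosen with their pathways known, so a share above that of all genes is not a finding of these arrays. The stretches of the NDC80 (chr18:2571467-2571586, plus strand) and HMMR (chr5:163460542-163460661, plus strand) promoters on GRCh38.p14 are shown because they hold that motif beside 2 of the largest differences, with TTTGAA or its reverse in capitals.
NDC80: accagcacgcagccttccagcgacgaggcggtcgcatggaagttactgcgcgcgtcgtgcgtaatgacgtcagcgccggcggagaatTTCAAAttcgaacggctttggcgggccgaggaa
HMMR: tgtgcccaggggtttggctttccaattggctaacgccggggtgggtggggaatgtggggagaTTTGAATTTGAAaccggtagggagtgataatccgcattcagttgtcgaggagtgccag

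DNA replication genes were shifted the same way by less. Of 36 compared, 17 were over 2-fold higher on the cordyceps array and 0 lower, with a median of 0.97. CDC45, a subunit of the replicative helicase, had 667 on the cordyceps array, 29.0 on the sunitinib array and 863 on the vehicle array, a difference of 3.75. TK1, the thymidine kinase of S phase, had 11163, 799 and 11109, a difference of 3.03, so cordyceps and vehicle were nearly equal. GINS4 and GINS1, subunits of the same helicase, differed by 2.32 and 2.26. MCM2, a core helicase subunit, was the gene furthest the other way at -0.49 and stayed within 2-fold. The S phase regulators had 5 of 7 genes over 2-fold higher, against 7 of 14 helicase and origin genes, 3 of 9 polymerase and clamp genes and 2 of 6 genes of nucleotide supply.

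The replication-dependent histones, whose transcripts are made in S phase, had 29 of 55 genes over 2-fold higher and 1 lower, with a median of 1.1. H3C15 had 4158 on the cordyceps array, 42.6 on the sunitinib array and 3634 on the vehicle array, a difference of 5.83. All 12 H4 genes compared were over 2-fold higher, with a median of 1.49, whereas of 14 H2B genes 2 were higher and 1 lower, with a median of -0.22. The lower gene was H2BC12, at -2.03 for its brightest probe and -0.52 for the other. Histone genes are near-identical copies, so the value of a single member may hold signal from others and is uncertain.

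**Figure D3:**
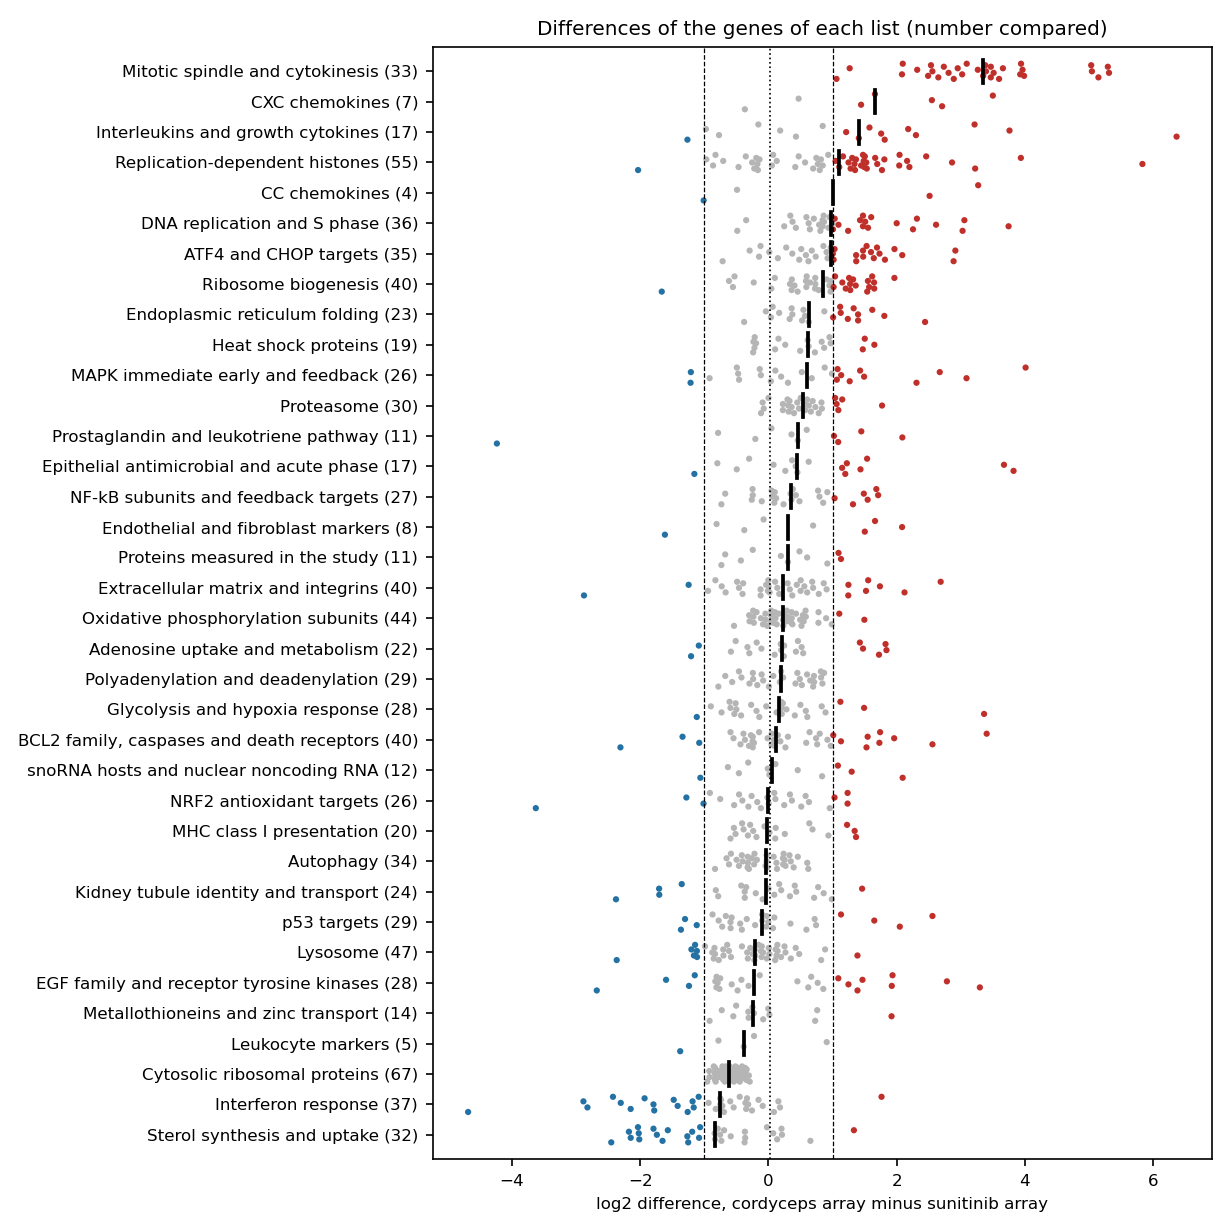
Log2 difference of each compared gene (cordyceps array minus sunitinib array, bounds included) for the 36 lists, ordered by list median (black bar), with the median of all genes (dotted) and 2-fold limits (dashed); red and blue points are over 2-fold higher and lower on the cordyceps array. Mitotic genes (median 3.35) stand at the top, and sterol (-0.84) and interferon (-0.75) genes at the bottom.

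Secreted signals of inflammation were higher on the cordyceps array than on the sunitinib array. Of 7 CXC chemokines compared, 5 were over 2-fold higher and 0 lower, with a median of 1.66, and all 5 were neutrophil-attracting members. Less the median of all genes, the list median was 1.64, and 0.0017 when members not well above background on either array were included. CXCL8 had 3032 on the cordyceps array, 156.4 on the sunitinib array and 3079.9 on the vehicle array, a difference of 3.50. CXCL2 had 4451, 443.7 and 5519 in the same order, a difference of 2.55. Cordyceps and vehicle were close for both, and sunitinib was low. CXCL3 differed by 2.71, CXCL5 by 1.66 and CXCL1 by 1.45. CXCL6 at 0.47 and CXCL16 at -0.37 stayed within 2-fold. The interferon-induced members CXCL9, CXCL10 and CXCL11 were not well above background on either treated array.

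Among CC chemokines, 4 of 18 could be compared, of which 2 were over 2-fold higher and 1 lower, and the list median less that of all genes ranged from 0.11 to 2.48 over the settings. CCL2, which attracts monocytes, had 4328 on the cordyceps array, 442 on the sunitinib array and 12498 on the vehicle array, a difference of 2.51. CCL3 had 447, 27.0 and 1407, a difference of 3.27. For these 2 genes, unlike CXCL8 and CXCL2, the cordyceps level also lay below vehicle, by -1.24 for CCL2 and -1.36 for CCL3. CCL24, an eosinophil chemokine, had 3238, 3805 and 3299, a difference of -1.01. CCL5 was not well above background on the cordyceps array, with a bound of -0.49.

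Interleukins and growth cytokines had 10 of 17 genes over 2-fold higher and 1 lower, with a median of 1.41. Less the median of all genes, that was 1.39, and it was 0.77 after normexp background correction and 0.20 with undetected members included. IL1A had 1905 on the cordyceps array, 82.1 on the sunitinib array and 1213 on the vehicle array, a difference of 3.76. IL1B had 1422, 89.4 and 825, a difference of 3.22. For both interleukin-1 genes the sunitinib level lay furthest from vehicle, by -2.81 and -2.13, and the cordyceps level lay above vehicle by 0.95 and 1.08. IL6 had 17232, 2219 and 32267, a difference of 2.18, with vehicle the highest. LTB, a lymphotoxin, differed by 2.30 and IL11 by 1.76. TNFSF13B, the B cell factor BAFF, was the lower gene, at -1.26.

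NF-kB is the transcription factor behind many of these chemokines, and its own subunits differed little. Of 27 genes of that list, 6 were over 2-fold higher and 0 lower, with a median of 0.36. None of the 5 subunit genes passed 2-fold, and their median was 0.06. Of the 8 inhibitor genes compared 1 was over 2-fold higher, with a median of 0.40. ICAM1, an adhesion molecule, had 2597 on the cordyceps array, 463 on the sunitinib array and 2904 on the vehicle array, a difference of 1.71. TRAF1, a receptor adaptor, differed by 1.68, BIRC3, an inhibitor of apoptosis, by 1.55 and TNFAIP2 by 1.49. In the CXC promoters the NF-kB site GGANNTTCC was in all 6 of the genes with a promoter in the table, on either strand, and in 5.57% of all genes. Of the 6, 5 were past 2-fold, so the site was also in the gene that was not. The CXCL8 (chr4:73740422-73740541, plus strand) and CXCL3 (chr4:74038704-74038823, minus strand) stretches are shown, on GRCh38.p14, for the 2 CXC chemokines with the largest differences, with the site in capitals.
CXCL8: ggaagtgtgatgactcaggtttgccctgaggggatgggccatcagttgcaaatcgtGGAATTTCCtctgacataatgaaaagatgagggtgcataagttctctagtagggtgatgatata
CXCL3: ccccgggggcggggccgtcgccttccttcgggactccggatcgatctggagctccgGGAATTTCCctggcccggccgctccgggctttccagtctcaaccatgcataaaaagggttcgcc

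Antimicrobial and acute phase genes of epithelium had 7 of 17 genes over 2-fold higher and 1 lower, with a median of 0.45. LCN2, a siderophore-binding protein, had 14523 on the cordyceps array, 664 on the sunitinib array and 5011 on the vehicle array, a difference of 3.67. DEFB4A, a beta-defensin, had 692, 28.5 and 1191, a difference of 3.82. Sunitinib was the low array for both, while cordyceps was the highest for LCN2 and vehicle for DEFB4A. SAA1, an acute phase protein, differed by 1.54, and C3, the central complement protein, by -0.80. In the prostaglandin and leukotriene pathway 4 of 11 genes were over 2-fold higher and 1 lower. Of the 11, 4 were bounds, and 12 other members were not well above background on either treated array. The lower gene was PTGFR, whose probe was bright on the sunitinib array alone. PTGES3, a prostaglandin synthase and HSP90 cochaperone, differed by 1.45 and PTGES2 by 1.09. ALOX5AP, which hands arachidonate to the leukotriene enzyme, was at least 4.25-fold higher on the cordyceps array.

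Interferon response genes went the other way. Of 37 compared, 15 were over 2-fold lower on the cordyceps array than on the sunitinib array and 1 was higher, with a median of -0.75. IFIT1, which binds viral RNA, had 137 on the cordyceps array, 589 on the sunitinib array and 124 on the vehicle array, a difference of -2.88. IFI44L had 117, 481 and 143, a difference of -2.82. For both genes the cordyceps and vehicle levels were close and the sunitinib level was high. IFI6, a mitochondrial antiviral protein, differed by -2.42. The higher gene was IRF1, an interferon regulatory factor that NF-kB also induces, at 1.76. Among the 15 lower genes the vehicle level was within 2-fold of the cordyceps array only for 12, of both arrays for 2, and between the arrays and over 2-fold from each for the other. The 14 antiviral effectors compared held 8 of the lower genes, and the 10 sensors and factors held 1.

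The core of the interferon-stimulated response element, GAAANNGAA on either strand, was in 19 of the 27 interferon genes with a promoter in the table (70.4%) and in 9.86% of all genes. Among the 12 with a promoter that were past 2-fold, 8 held it. The IFIT1 (chr10:89392459-89392578, plus strand) and IFITM1 (chr11:313950-314069, plus strand) stretches on GRCh38.p14 are shown for the 2 lowest interferon genes, with the core in capitals.
IFIT1: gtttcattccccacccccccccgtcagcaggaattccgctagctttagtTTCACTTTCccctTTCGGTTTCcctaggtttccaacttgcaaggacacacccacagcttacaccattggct
IFITM1: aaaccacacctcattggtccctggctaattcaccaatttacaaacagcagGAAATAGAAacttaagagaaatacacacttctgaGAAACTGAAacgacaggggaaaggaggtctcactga

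**Figure D4:**
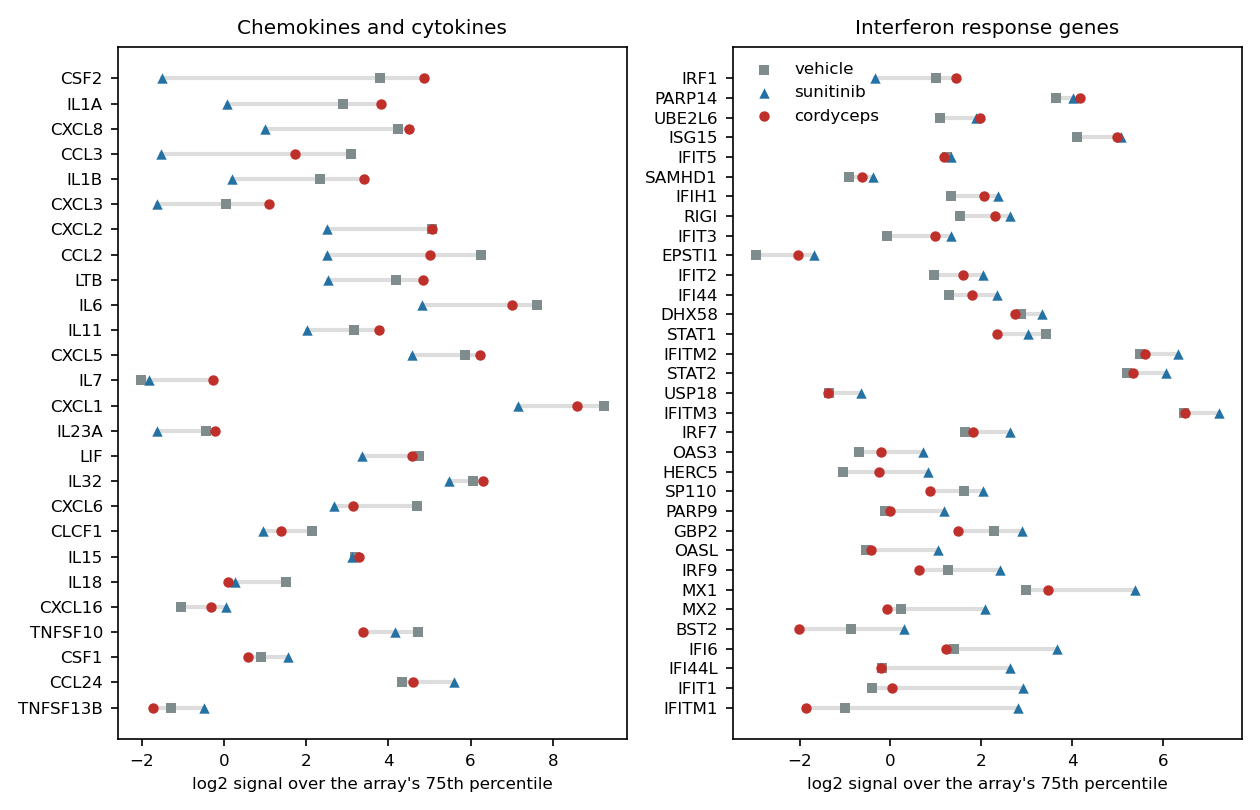
Levels on the cordyceps (circle), sunitinib (triangle) and vehicle (square) arrays, 1 array each, of the chemokines and cytokines (left) and interferon response genes (right) measured on both treated arrays, as log2 signal over the 75th percentile of the array. From CSF2 to IL6 the sunitinib triangle is the lowest of the 3, and from IFITM1 up to MX1 it is the highest.

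The genes of MHC class I presentation, which interferons also induce, stayed mostly within 2-fold. Of 20 genes 3 were over 2-fold higher on the cordyceps array and 0 lower, with a median of -0.02. The sign of that median relative to all genes turned in 4 of the 10 settings. Some of those settings only rescale the arrays and could not turn it. TAP2, a peptide transporter, differed by 1.37 and PSMB10, an immunoproteasome subunit, by 1.34. The 9 heavy chain genes had a median of -0.39, and none passed 2-fold. B2M, the light chain, differed by -0.59.

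Early response genes of the MAPK pathway had 10 of 26 genes over 2-fold higher and 2 lower, with a median of 0.60. Less the median of all genes, that was 0.58, and 0.37 after normexp or with undetected members included. FOSL1, an AP-1 subunit, had 2477 on the cordyceps array, 89.7 on the sunitinib array and 977 on the vehicle array, a difference of 4.01. JUN, another AP-1 subunit, had 2124, 194 and 1290.0, a difference of 2.67. MYC had 2867, 337 and 2067, a difference of 2.31. In each of these the order was cordyceps, vehicle, sunitinib. EGR1, an early zinc finger factor, went the other way at -1.21, with 289.9, 392 and 225. FOS was not well above background on either treated array.

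The EGF family ligands stood among the higher genes and most receptors did not. AREG had 449 on the cordyceps array, 26.7 on the sunitinib array and 329 on the vehicle array, a difference of 3.30. EREG had 2353, 199 and 2904, a difference of 2.78, and NRG1 differed by 1.94. Of 6 EGF ligands compared 4 were over 2-fold higher, with a median of 1.93. EGFR, their receptor, differed by 1.47 for its brightest probe, and its 3 probes ranged from 0.03 to 1.47. MET, the hepatocyte growth factor receptor, had 13917, 3418 and 14432, a difference of 1.25. INSR, the insulin receptor, was lower at -1.60. Of 9 named targets of sunitinib 2 could be compared: PDGFRB had 520.2, 531.6 and 706, a difference of -0.81, and RET had a bound of -0.76, while KDR, FLT1, FLT4, KIT and PDGFRA were not well above background on either treated array. Over the whole list of 28 genes, 8 were higher and 4 lower, with a median of -0.22 that turned positive relative to all genes when only genes measured on both arrays were kept.

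Genes of protein folding in the endoplasmic reticulum were higher on the cordyceps array. Of 23 compared 10 were over 2-fold higher and 0 lower, with a median of 0.63, and the chaperones held 6 of the 10. HSPA5, the main chaperone of that compartment, had 4816 on the cordyceps array, 517 on the sunitinib array and 2950.3 on the vehicle array, a difference of 2.44. SDF2L1, a cofactor of HSPA5, had 5712, 952 and 3887, a difference of 1.81. Sunitinib was the low array for both. DNAJC3, which inhibits the kinase PERK, differed by 1.62, MANF by 1.40, and DERL3 was furthest the other way at -0.38.

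Targets of ATF4 and CHOP, the factors of the amino acid and stress response, had 17 of 35 genes over 2-fold higher and 0 lower, with a median of 0.97. SLC7A5, a transporter of large neutral amino acids, had 2862 on the cordyceps array, 221 on the sunitinib array and 2443 on the vehicle array, a difference of 2.92. VEGFA, the vascular growth factor, had 3715, 293 and 3177, a difference of 2.89, and its other probe gave 2.25. ASNS, asparagine synthetase, had 35312, 5274 and 26565, a difference of 1.97. The sunitinib array was lowest and the other arrays were within 2-fold of each other for all of these. PPP1R15A, a phosphatase subunit that restores translation, differed by 2.09, while NUPR1, a stress-induced nuclear protein, was at -0.71. By role, 5 of 8 amino acid synthesis genes, 3 of 6 transporters, 4 of 9 regulators and 3 of 8 tRNA synthetases were over 2-fold higher.

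In the promoter windows the ER stress element, CCAAT and CCACG with 9 bases between them, was in 7 of 20 folding genes (35%) and in 0.0916% of all genes, and the C/EBP-ATF response element TGATGNAA in 11 of 29 ATF4 and CHOP targets (37.9%) and in 4.46% of all genes, each on either strand. Of the folding genes past 2-fold, 3 of 10 held the element, and of the ATF4 and CHOP targets past 2-fold, 6 of 15. The HSPA5 (chr9:125241341-125241460, minus strand) and ASNS (chr7:97872413-97872532, minus strand) stretches on GRCh38.p14 are shown because each gene is well known for its element, given in capitals.
HSPA5: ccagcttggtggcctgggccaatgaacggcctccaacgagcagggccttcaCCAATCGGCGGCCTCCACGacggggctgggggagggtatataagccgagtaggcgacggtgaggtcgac
ASNS: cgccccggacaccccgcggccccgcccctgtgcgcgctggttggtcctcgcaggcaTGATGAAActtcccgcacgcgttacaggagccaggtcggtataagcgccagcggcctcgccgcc

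Cytosolic and mitochondrial heat shock proteins had 3 of 19 genes over 2-fold higher and 0 lower, with a median of 0.61. HSPA9, the mitochondrial HSP70, differed by 1.65, CRYAB by 1.50 and TRAP1, the mitochondrial HSP90, by 1.47, whereas HSPA8 was at -0.24. The inducible HSPA1A and HSPA6 were not well above background on either treated array.

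Targets of p53 showed no common direction: 4 of 29 were over 2-fold higher and 3 lower, with a median of -0.10. PMAIP1, a pro-apoptotic BH3 protein, had 3657 on the cordyceps array, 362 on the sunitinib array and 3148 on the vehicle array, a difference of 2.56. GADD45A, a growth arrest gene, differed by 2.05 and BAX by 1.13, while CCNG1, a cyclin of the p53 feedback, differed by -1.36 (-0.87 for its other probe). Among the BCL2 family, caspases and death receptors, 9 of 40 genes were higher and 3 lower, with a median of 0.12. BIK, a BH3 protein, differed by 1.96 and TNFRSF10A, a TRAIL receptor, by 1.74. BMF, another BH3 protein, had 239, 691 and 592 in the same order, a difference of -2.31, and its other probe gave a bound of -0.47. Of 12 caspase genes 1 passed 2-fold.

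A list of 11 genes of the NF-kB, JNK and apoptosis proteins on the western blots had 2 over 2-fold higher and 0 lower, with a median of 0.30 that lay below that of all genes when the probes of a gene were averaged. BAX had 6976 on the cordyceps array, 1857 on the sunitinib array and 4289 on the vehicle array, a difference of 1.13, and its other probe gave 0.30. PARP1 had 2157, 589.8 and 1840.2, a difference of 1.09, and its other probe gave 0.14. CFLAR, which encodes c-FLIP, had 975, 674 and 1182, a difference of -0.24 for its brightest probe, and its other 3 probes gave 0.08, 0.72 and -0.82. GADD45B had 3130.2, 3036 and 4061, a difference of -0.73, and MAP2K7, which encodes MKK7, was at -0.43. NFKB1 was at 0.48, RELA at -0.67 and NFKBIA at 0.92. MAPK8, which encodes JNK1, was at 0.60 for its brightest probe, whereas its other probes gave -0.70 and a bound of -1.29. ACTB was at 0.19.

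Sterol synthesis genes were lower on the cordyceps array than on the sunitinib array. Of 32 genes of sterol and fatty acid synthesis and uptake 15 were over 2-fold lower and 1 higher, with a median of -0.84, and 12 of the 15 were among the 19 sterol synthesis enzymes. DHCR7, the last enzyme of cholesterol synthesis, had 3700.2 on the cordyceps array, 9562 on the sunitinib array and 7635 on the vehicle array, a difference of -2.15. IDI1, an isomerase of the isoprenoid steps, had 200.1, 478 and 256, a difference of -2.03. Sunitinib was the high array for both on the scaled levels, by 1.40 over vehicle for DHCR7 and 1.97 for IDI1. SCD, the stearoyl-CoA desaturase, had 182, 579 and 558, a difference of -2.45, and lay below vehicle on the cordyceps array by -1.32 and above it on the sunitinib array by 1.13. STARD4, a cholesterol carrier, differed by -2.17. The higher gene was ELOVL6, a fatty acid elongase, at 1.33. For 10 of the 15 lower genes the vehicle level was within 2-fold of the cordyceps array only. The sterol regulatory element TCACNCCAC was found on either strand in 1 of the 26 promoters in the table and in 1.39% of all genes. Of the 15 genes past 2-fold with a promoter in the table, 0 held it.

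**Figure D5:**
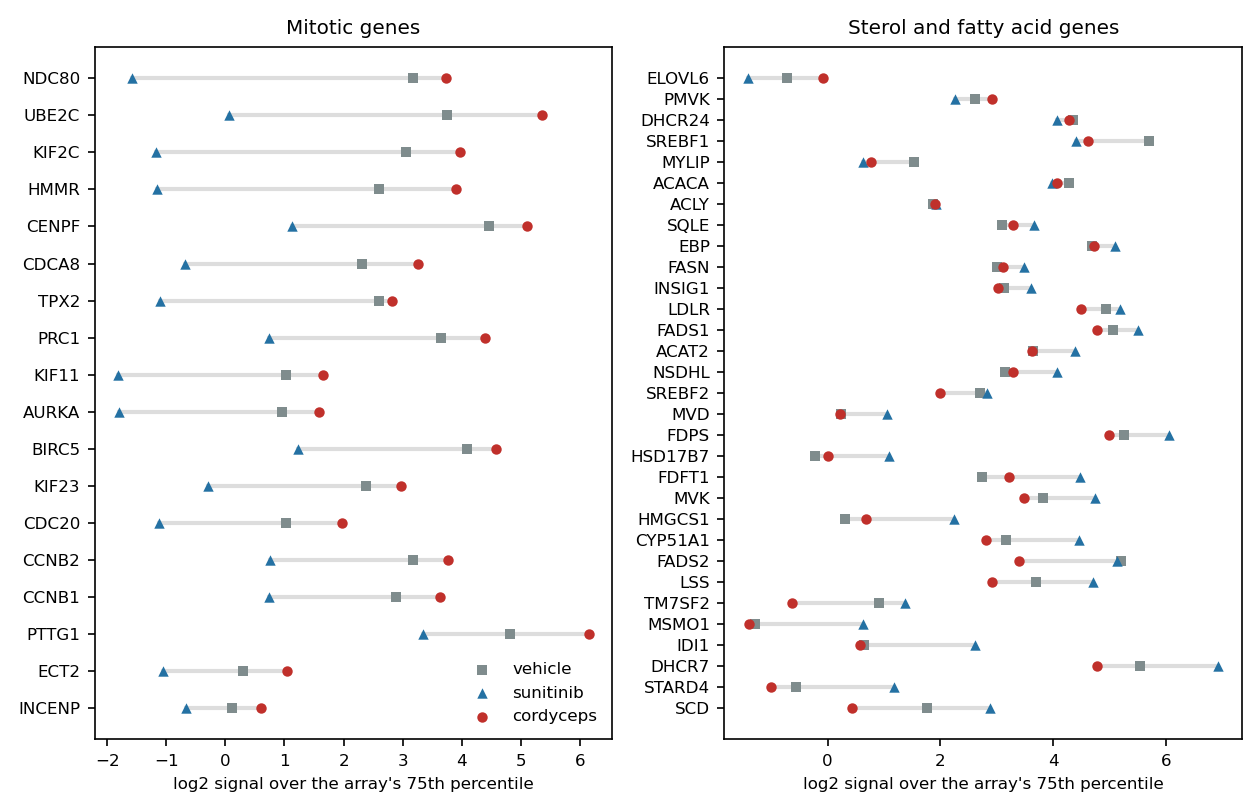
Levels on the cordyceps (circle), sunitinib (triangle) and vehicle (square) arrays, 1 array each, of the mitotic genes (left) and the sterol and fatty acid genes (right) measured on both treated arrays, as log2 signal over the 75th percentile of the array. For the mitotic genes the order is sunitinib, vehicle, cordyceps in each row, and from SCD up to HSD17B7 the sterol genes have cordyceps below sunitinib.

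Lysosomal genes had 6 of 47 over 2-fold lower and 1 higher, with a median of -0.21. SMPD1, the acid sphingomyelinase, had 133 on the cordyceps array, 399.7 on the sunitinib array and 303 on the vehicle array, a difference of -2.37. NPC2, a lysosomal cholesterol carrier, differed by -1.14. LAMP3, a membrane protein, was the higher gene at 1.39, with 3220, 718 and 449.8, so that both treated arrays lay above vehicle. None of the 34 autophagy genes compared passed 2-fold, and their median of -0.04 changed sign relative to all genes in 1 of 10 settings. Those measured on both arrays ranged from NBR1, an autophagy receptor, at -0.83 to BECN1, a subunit of the initiating lipid kinase, at 0.62.

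All 67 cytosolic ribosomal protein genes compared were below 0, from -0.95 for RPL31 to -0.29 for RPL8, with a median of -0.61, and none passed 2-fold. The 200 brightest genes as a whole had a median of -0.44, but the 2 sets overlap, so this is no separate comparison. Those 200 start at a mean level of 8.01, and the ribosomal protein genes had median levels of 9.29 (cordyceps) and 9.87 (sunitinib). Relative to all genes the ribosomal shift shrank to -0.13 after normexp background correction or quantile scaling. RPL8 had 116080 on the cordyceps array, 82870 on the sunitinib array and 111130 on the vehicle array, and its difference lay above 0 in 4 of 10 settings. The genes of ribosome biogenesis went the other way, with 16 of 40 over 2-fold higher and 1 lower and a median of 0.85. DKC1, the pseudouridine synthase of snoRNPs, had 2701, 404 and 2128, a difference of 1.96. NOP58 had 8991, 1671 and 9926, a difference of 1.65. The sunitinib array was low for both. UBTF, a factor of RNA polymerase I, was the lower gene at -1.66.

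Proteasome subunits had 5 of 30 over 2-fold higher and 0 lower, with a median of 0.54, led by PSMD14, the deubiquitinase of the cap, at 1.77. Oxidative phosphorylation subunits had 2 of 44 higher and 0 lower, with a median of 0.23, led by ATP5MC1, a subunit of the ATP synthase rotor, at 1.50. The share of oxidative phosphorylation genes over 2-fold higher, 4.55%, lay below the background, and that of proteasome genes, 16.7%, above it. Of 28 glycolysis and hypoxia genes 3 were higher and 1 lower. HK2, a hexokinase, had 681 on the cordyceps array, 38.6 on the sunitinib array and 466 on the vehicle array, a difference of 3.36. PDK1, which inhibits pyruvate dehydrogenase, differed by 1.49, SLC2A1, the main glucose transporter, by 1.12 and KDM3A, a hypoxia-induced demethylase, by -1.12.

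The machinery of poly(A) tails, which cordycepin is known to affect, had 0 of 29 genes over 2-fold higher and 0 lower by the brightest probe of each, with a median of 0.20. CSTF3, a cleavage stimulation factor, was at 0.82 by that probe, whereas its other probe gave 1.90 and the gene passed 2-fold in 3 of 10 settings. PAPOLA, the main poly(A) polymerase, had 834 on the cordyceps array, 267 on the sunitinib array and 701 on the vehicle array, a difference of 0.87. CLP1, a cleavage factor, was furthest the other way at -0.78. In adenosine uptake and metabolism 5 of 22 genes were higher and 2 lower. ADORA2B, the adenosine receptor of low affinity, had 1489, 243 and 613, a difference of 1.84, and the other receptors were not well above background on either treated array. HPRT1, a purine salvage enzyme, differed by 1.72 and SLC29A3, a nucleoside transporter, by -1.21. The nuclear noncoding RNAs and snoRNA hosts had 3 of 12 higher and 1 lower. SNHG15 differed by 2.09 and NEAT1, the scaffold of paraspeckles, by 1.08, while SNHG7 was at -1.06 for its brightest probe and its 4 probes ranged from -1.42 to 1.07.

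Antioxidant targets of NRF2 were split, with 3 of 26 genes over 2-fold higher, 3 lower and a median of -0.01 that changed sign relative to all genes in 1 of 10 settings. TXNRD1, a thioredoxin reductase, differed by 1.24 and HMOX1, heme oxygenase, by 1.23, with 2 of the 48 spots around its probe over 16-fold brighter than on the other arrays, while PGD, an enzyme of the pentose phosphate pathway, differed by -1.28. Metallothioneins and zinc transporters had 1 of 14 higher and 0 lower, with a median of -0.24. MT1F, a zinc-binding metallothionein, had 1363 on the cordyceps array, 1502 on the sunitinib array and 2557 on the vehicle array, a difference of -0.92.

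The renal origin of the cells was checked on 38 genes of tubule identity and transport, of which 24 could be compared. PAX8, a renal lineage factor, had 3159.5 on the cordyceps array, 2382 on the sunitinib array and 6878 on the vehicle array, and the keratins KRT18 and KRT19 were measured on all arrays, while CDH1 and HNF4A were not well above background on either treated array. Of the 24, 1 was over 2-fold higher and 4 lower, with a median of -0.04 that changed sign relative to all genes in 3 of 10 settings. CDH6, the cadherin of proximal tubules, had 147, 445.6 and 913, a difference of -2.38. CDH16, the kidney cadherin, had 238, 452 and 1340.0, a difference of -1.70, and KCNJ16, a potassium channel, differed by -1.70. These were among the genes low on the cordyceps array: of the 4 lower genes, 3 had a vehicle level within 2-fold of the sunitinib array only. PAX2 differed by -1.35, and MME, a brush border peptidase, was the higher gene at 1.46.

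Extracellular matrix and integrin genes had 7 of 40 over 2-fold higher and 2 lower, with a median of 0.23. PLAUR, the urokinase receptor, had 284.8 on the cordyceps array, 38.2 on the sunitinib array and 283.9 on the vehicle array, a difference of 2.12. CCN1, a matricellular protein, differed by 1.52. SMOC1, a matrix protein that antagonises BMP, had 46.2, 198 and 37.8, a difference of -2.88. Markers of other cell types were few: 5 of 16 leukocyte markers and 8 of 15 endothelial and fibroblast markers could be compared. The summed level of the 5 leukocyte markers, in units of the 75th percentile, was 15.7 on the cordyceps array, 23.8 on the sunitinib array and 17.7 on the vehicle array. Most of each sum came from CD79A, with signals of 1639, 1641 and 2081 in the same order. CD14 had 374, 116 and 693, while CD3E and ITGAM were not well above background on either treated array. The summed level of the 8 endothelial and fibroblast markers was 19.0, 23.5 and 48.9, with PECAM1 and COL3A1 not well above background. COL1A1, a fibrillar collagen, had 1069, 385 and 5308, and DCN, a matrix proteoglycan, 169, 31.2 and 707, so both treated arrays lay below vehicle. The part of other cells in any result was not tested.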

How the data were processed

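The authors hybridised Cy3-labelled RNA to Agilent single-colour arrays. The deposited unit is intensity on a linear scale after background subtraction, from version 11.5.1.1 of Feature Extraction, and the file headers name build hg19. A deposited table of the same values, unscaled, was an alternative. The study's methods describe another, 2-channel array, and only its 2-fold limit was used.

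Spots in rows 55 to 102 and columns 1 to 24 (1152 spots), control spots and outlier-flagged spots were left out. The spots of each probe were averaged, and the log2 intensity was scaled by the 75th percentile of the array (134, 78.1 and 164 for cordyceps, sunitinib and vehicle) with pandas 2.3.3 in Python 3.11.15. The brightest probe of each gene was kept, and symbols were updated through the RefSeq table of GRCh38.p14. A dim side not well above background was raised to the lowest signal well above background on its array (30.2, 18.3 and 18.2). On each array 37.6% to 45.5% of probes were well above background. The calculation was tested on simulated data.

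The 36 gene lists, the members and the promoter motifs were chosen with earlier results of these data known. Named genes were the 12 highest and 12 lowest measured differences, the 5 largest bounds each way, up to 4 leading members and the furthest opposite member of each list, the genes of the blotted proteins, and the chemokines. Among the largest differences and bounds, a probe with over 1 of the 48 surrounding spots over 16-fold brighter than on the other arrays was named apart, as PRAMEF5 was. A few genes that the rule names are not reported here. IL6, IL11, MET, RET, ALOX5AP, PAX8, KRT18, KRT19 and the genes given as not well above background were named after their values were seen. Promoters came from RefSeq, and a gene counted if any of its promoters held the motif. Alternatives were 12 settings: scaling by median, by detected probes and by quantiles, the deposited table, normexp with offset 50 in limma 3.58.1, filters, averaging of probes, outlier spots, the block, a 4-fold limit and others. Probes counted in place of genes were chosen after seeing the data.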

Additional observations from a re-analysis of the deposited data

Results flagged for a closer look

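The block of spots left out of the comparison carried signal on the cordyceps array that no result uses. Of the 5 negative control spots in the block, 3 were well above background on the cordyceps array and 0 on the sunitinib and vehicle arrays. The median processed signal of gene spots in the block was 51.0 on the cordyceps array against 12.5 outside it, while it was 10.5 against 9.92 on the sunitinib array and 18.7 against 17.3 on the vehicle array. Keeping the block gave 1313 genes over 2-fold higher and 1053 lower.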

How the results depend on the processing

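Scaling and filters moved the counts of 1321 higher and 935 lower genes. Median scaling gave 3543 and 289 (92.5% higher), the unscaled deposited values 5182 and 179 (96.7%), normexp background correction 713 and 463, a 4-fold limit 285 and 115 (71.3%), and probes counted in place of genes, chosen after seeing the data, 2091 and 1892. Without the filter on dim probes 2115 genes were lower, and the higher share of 45.8% fell below that of the lower genes. Fewer genes lay past the fold after normexp, 1148 of the 2256 being kept. List medians less that of all genes changed sign for EGF family and receptor tyrosine kinase genes (0.21) and endothelial and fibroblast markers (-0.26) with genes detected on both arrays, and for the study's proteins (-0.058) with probes averaged. Counting medians near 0 as well, 12 of 360 list medians, in 7 lists, had the opposite sign. Scaling by the median or by detected probes, or no scaling, shifts all differences alike except some bounds. These settings could hardly change a list median less that of all genes, so the counts of settings overstate how firmly such medians were checked. With undetected members included, list medians less that of all genes fell to 0.0017 for CXC chemokines, 0.11 for CC chemokines, 0.20 for interleukins, 0.14 for antimicrobial genes and 0.32 for heat shock proteins. Of 156 named genes past 2-fold, 125 stayed past it in every setting compared, and none of the 156 changed sign. Of the 57 named genes within 2-fold, 23 had the opposite sign in at least 1 setting. No paired analysis was possible because each condition had 1 array, so no replicate could be left out. Signal over background limited dim genes, and only bounds are given where 1 side was not well above background. Measured differences that rest on a dim signal on either treated array also moved with the setting. Among genes dim on the sunitinib array, NDC80 ranged from 4.01 to 6.09, CSF2 from 4.98 to 7.14 and CDC45 from 2.43 to 4.52. Among genes dim on the cordyceps array, IFITM1 ranged from -4.74 to -3.14 and PDK4 from -2.02 to -1.03.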

Other observations

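Further gene groups were described after their values had been seen, so their counts are no independent evidence. Targets of BMP and SMAD signalling had 9 of 16 genes over 2-fold lower on the cordyceps array than on the sunitinib array and 3 higher, with a median difference of -1.25 beside 0.02 for all genes. The 4 inhibitors of DNA binding were all lower, with a median of -3.28, as were the 3 inhibitory and common SMADs, with a median of -2.41. The 9 other targets compared showed no common direction, with 3 higher, 2 lower and a median of -0.21. ID2 had 306 on the cordyceps array, 2479.6 on the sunitinib array and 706 on the vehicle array, and ID3 had 166, 1192 and 386. NOG, a secreted BMP antagonist, went the other way at 2.03, with 188, 26.8 and 226. For 6 of the 9 lower genes the vehicle level was within 2-fold of the cordyceps array only.

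Targets of FOXO factors, which insulin and growth factor signalling restrain, had 7 of 17 genes over 2-fold lower on the cordyceps array and 0 higher, with a median of -0.63. PDK4, a kinase that inhibits pyruvate dehydrogenase, had 39.3 on the cordyceps array, 89.2 on the sunitinib array and 50.1 on the vehicle array, a difference of -1.96. IRS2, an insulin receptor substrate, had 729, 1406 and 941, a difference of -1.72. All 3 genes of insulin signalling compared were over 2-fold lower, while none of the 4 cell cycle genes was. For 6 of the 7 lower genes the vehicle level was within 2-fold of the cordyceps array only.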
